A study of Mus musculus with 8 samples.

Results

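Lysosomal hydrolases and the genes that build and supply the lysosome were followed through mouse splenic dendritic cells (DC). The module holds 40 genes, found by Entrez ID and symbol among the 27179 gene rows of the deposited count table. They were 14 genes grouped as glycosidases, 5 sulfatases, 7 hydrolases of lipids, thioesters and phosphates, and 5 peptidases and activator proteins (with progranulin). The others were 3 membrane proteins, 3 transcription factors of the TFEB family and 3 sorting receptors. Aga, placed in the glycosidase group, cleaves the link between asparagine and glycans and is not itself a glycosidase. Cathepsins were left aside. All 40 genes were found and all 40 passed the filter on low counts.

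The libraries came from spleens of C57BL/6 mice that carried a leukemia (acute myeloid, per the series title), vehicle-treated mice included, so no leukemia-free animal enters any comparison. Mice had received panobinostat (LBH589), an inhibitor of histone deacetylases, or vehicle (D5W in the column names) for 2 days. There were 4 groups, from plasmacytoid DC (pDC), which are known as strong makers of type I interferon, and conventional DC (cDC), which are known for priming T cells: vehicle pDC, panobinostat pDC, vehicle cDC and panobinostat cDC. Each group had 2 libraries, and each library pooled 3 to 6 mice. The ages of the mice and the leukemia line are not stated in the labels used here.

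Total counts ran from 13124861 to 20657429 per library. Panobinostat pDC replicate 2 stood apart: it had the smallest total and 10745 genes with at least 1 count, against 14927 to 19950 in the other libraries. Its log2 CPM (counts scaled to the depth and composition of each library) correlated with that of its replicate at r = 0.801 across all genes and 0.88 across the 40 members. In the other 3 groups these values were 0.965 to 0.973 and 0.987 to 0.995. The summed level of 10 pDC markers was 12790 to 21060 CPM in pDC and 183 to 276.2 in cDC. The 10 cDC markers did not separate the cell types as a sum (1792 to 3504 CPM in pDC, 2308 to 3435 in cDC). Xcr1, Zbtb46, Batf3 and Id2 were at 0 to 71.7 CPM in pDC and 92.1 to 1050 in cDC. Cd209a and Clec10a were higher in every pDC library than in any cDC library. Among pDC libraries Id2, Batf3, Zbtb46 and Itgae were highest in panobinostat replicate 2 (71.7, 19, 19.6 and 32.6 CPM). In the other pDC libraries they were at 5.95 to 21.1, 0.857 to 1.49, 2.37 to 8.27 and 0.0496 to 0.919. In panobinostat pDC replicate 2 Xcr1 was at 0 CPM (1.11 to 4.6 in the other pDC libraries) and Itgax at 206 (124 to 266). The labels' extraction text names leukemia cells as the sorted cells, whereas titles and cell type labels name DC. Of the progenitor markers, Mpo, Elane and Prtn3 were at 0 to 6.52 CPM, Hoxa9 reached 21.6 and Meis1 20.4 CPM in panobinostat pDC, and Kit was at 248 to 383 CPM in cDC and 0 to 35.8 in pDC. The 10 macrophage markers summed to 180.4 to 364.7 CPM in cDC and 0 to 45.19 in pDC, all 10 at 0 in panobinostat pDC replicate 2. NK cell markers summed to 186.9 CPM in panobinostat cDC replicate 2 and 0 to 29.82 elsewhere, and erythroid markers to 147.8 to 3238 over the 8 libraries. B cell markers summed to 112.6 to 452.3 CPM and neutrophil markers to 0.1009 to 4.831. T cell markers summed to 482 to 1662 CPM in pDC and 113.1 to 156.4 in cDC, a sum carried mostly by Cd4 and Cd8b1. Cd3d, Cd3e, Cd3g and Trac were at 0 to 8.73 CPM in every library. Lck, the other marker of this list, peaked in panobinostat replicate 2 of either cell type. Its pDC level there was 46.3 CPM, against 10.3 in panobinostat replicate 1 and 3.63 and 3.73 with vehicle. Its cDC level there was 38.9 CPM, against 2.46 in panobinostat replicate 1 and 1.35 and 13.3 with vehicle. Monocyte markers summed to 2086 to 6930 CPM in pDC and 203.7 to 337.5 in cDC, a sum carried in pDC by Ly6c2 and Ccr2, while Csf1r was at 0 to 10.8 CPM in pDC and 87 to 204 in cDC. The part of these other cell types in the results below was not tested, and in bulk RNA fewer cells of a type and less RNA per cell cannot be told apart.

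Lysosomal hydrolases work at acid pH and break down glycans, lipids, proteins and nucleic acids that arrive by endocytosis or autophagy. Most are tagged with mannose 6-phosphate in the Golgi and carried by the receptors encoded by M6pr and Igf2r, while sortilin (Sort1) carries others, among them prosaposin and progranulin. TFEB and its relatives TFE3 and MITF are known to bind E-box sequences in promoters of many lysosomal genes when nutrient signalling at the lysosome is low. In DC the lysosome is known as the place where antigen is cut for presentation and where Toll-like receptors meet nucleic acids.

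Because TFEB is known for its E-box, the promoters of the members were read first. RefSeq promoter windows (GRCm38.p6, 250 bases before to 50 bases after the start site) were matched for 35 of the 40 genes, in 47 windows. The palindrome CACGTG, which reads the same on both strands, was found in 9 genes (25.7% of 35). It was found in 11.4% of the genes tested for expression that had a window and in 8.09% of all genes of the table with a window. The longer TCACGTGA, which contains it, was found in 3 members (8.57%), Gla, Mcoln1 and Igf2r, against 2.14% and 1.12%. The stretches that hold the matches are shown with 15 bases on either side, 5′ to 3′ on the gene's strand, with CACGTG in capitals.
Gaa (chr11:119267808-119267843, plus strand): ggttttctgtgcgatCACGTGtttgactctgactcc
Gla (chrX:134601179-134601247, minus strand): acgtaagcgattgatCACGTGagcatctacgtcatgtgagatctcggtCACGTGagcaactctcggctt
Glb1 (chr9:114401015-114401050, plus strand): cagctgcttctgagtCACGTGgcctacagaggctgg
Naglu (chr11:101070006-101070041, plus strand): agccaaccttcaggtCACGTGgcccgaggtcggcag
Sgsh (chr11:119355519-119355554, minus strand): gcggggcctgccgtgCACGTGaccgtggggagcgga
Arsa (chr15:89477420-89477455, minus strand): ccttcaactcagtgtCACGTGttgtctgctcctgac
Lamp1 (chr8:13159085-13159166, plus strand): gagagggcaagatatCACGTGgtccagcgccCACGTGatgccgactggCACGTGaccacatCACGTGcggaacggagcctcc
Mcoln1 (chr8:3500433-3500494, plus strand): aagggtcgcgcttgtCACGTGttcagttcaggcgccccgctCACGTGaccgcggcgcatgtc
Igf2r (chr17:12769693-12769769, minus strand): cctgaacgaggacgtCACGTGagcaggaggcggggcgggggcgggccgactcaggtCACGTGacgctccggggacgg
Lamp1, the gene of an abundant protein of the lysosomal membrane, had 4 matches within its last 61 bases before the start site, and Gla, Mcoln1 and Igf2r had 2 each. In Gaa the single match lay 140 bases before the start and in Sgsh 29 bases before it. Man2b2, whose window was also matched, held no CACGTG. A match describes letters in a window and not a bound site. With the 9 genes set beside the 26 matched genes without the palindrome, the median log2 fold change of panobinostat against vehicle in pDC was -0.24 and -0.18 (Igf2r, at 0 counts with panobinostat, set to its bound), and in cDC -0.05 and 0.16.

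The members took 1.69% to 2.71% of the counts of each library. Per kilobase of the longest annotated transcript, Psap, the gene of the saposin precursor, had the largest mean level of the 40 in every group, from 3160 CPM per kb in vehicle cDC to 4250 in panobinostat cDC. Psap alone held 42.2% to 55.9% of the members' summed CPM. The order below it depended on the cell type. In vehicle pDC it was followed by Grn (progranulin, 1610 CPM per kb), Gm2a (the activator protein for ganglioside breakdown, 354) and Asah1 (acid ceramidase, 273). In vehicle cDC it was followed by Gm2a (951), Ppt1 (a thioesterase that removes palmitate from proteins, 826) and M6pr (235). The smallest levels were those of Igf2r in pDC (0.0235 CPM per kb with vehicle) and Mitf in cDC (0.665 with vehicle). The plot of the 40 genes in each library shows levels that span from 0 counts to 12400 CPM.

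**Figure D1:**
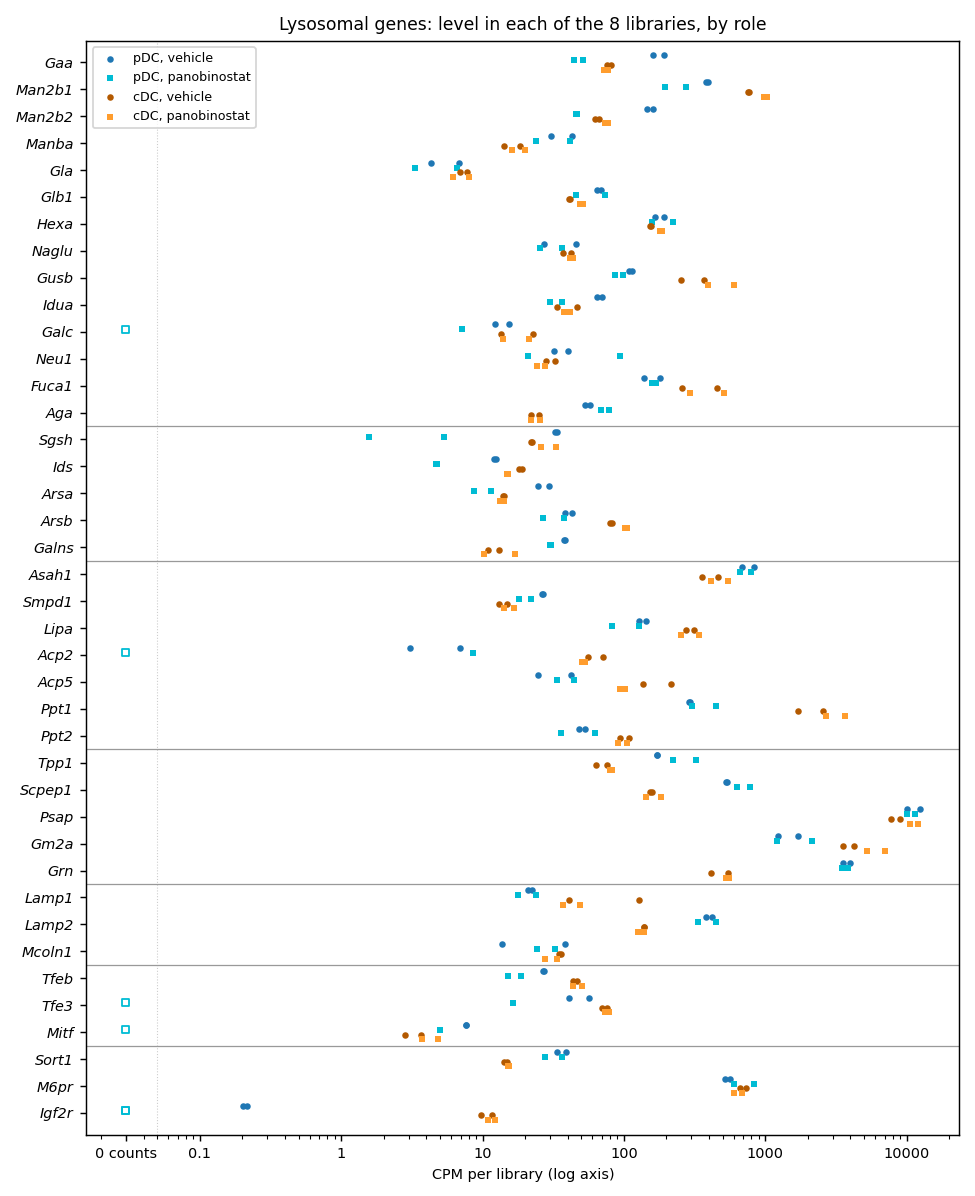
Level of each of the 40 lysosomal genes in each of the 8 libraries, in CPM on a log axis, grouped by role with horizontal lines between roles. Circles are vehicle and squares panobinostat libraries (blue pDC, orange cDC), and open symbols at the left edge are libraries with 0 counts. Psap runs highest, and Grn, Scpep1 and Lamp2 lie to the right in pDC while Ppt1, Gm2a and Igf2r lie to the right in cDC.

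The first comparison asked whether panobinostat changed lysosomal transcripts of pDC. Both genes that passed the test were glycosidases and both fell: Gaa, the acid alpha-glucosidase that degrades lysosomal glycogen, and Man2b2, an alpha-mannosidase. No member rose. The 2 lower genes are 5% of the members, where 0.0773% of all 14238 genes tested were called lower and 0.014% higher (edgeR's quasi-likelihood test, adjusted p under 0.05). At an unadjusted p under 0.05 there were 8 lower and 1 higher members, where 9.24% of all genes were lower and 5.65% higher.

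Gaa stood at 161 and 192 CPM in the vehicle libraries and at 44.5 and 51.2 with panobinostat. Both panobinostat libraries lay far below both vehicle libraries, with little spread within either group. The log2 fold change was -1.88 ± 0.19 (SE, adjusted p = 0.0499), a level 3.69-fold lower. Man2b2 stood at 161 and 146 CPM with vehicle and at 46.5 and 45.7 with panobinostat, again without overlap. Its log2 fold change was -1.73 ± 0.18 (adjusted p = 0.0499), 3.33-fold lower. In mm10, Gaa lies on chromosome 11 (119267963 to 119285458, plus strand) and Man2b2 on chromosome 5 (36806813 to 36830649, minus strand), and neither overlaps another annotated exon. Both calls sat at the edge of the threshold. With the replicate number as a block the fold changes were -1.88 and -1.73 and the adjusted p 0.0832 for both, so that 0 members were called. With GC and length offsets they were -0.96 and -1.01 (adjusted p = 0.218). The number of members called was 17 without panobinostat pDC replicate 1 and 7 without replicate 2, with Gaa and Man2b2 lower in both fits; the 7 also held Man2b1, Sgsh, Ids, Arsa and Tfe3. It was 0 without vehicle pDC replicate 1 or 2, vehicle cDC replicate 1 or 2, or panobinostat cDC replicate 1 or 2. With DESeq2 it was 6 and with limma-voom 0. The share of all genes called in these alternative fits is not given, so the counts show only how the result depends on processing.

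**Figure D2:**
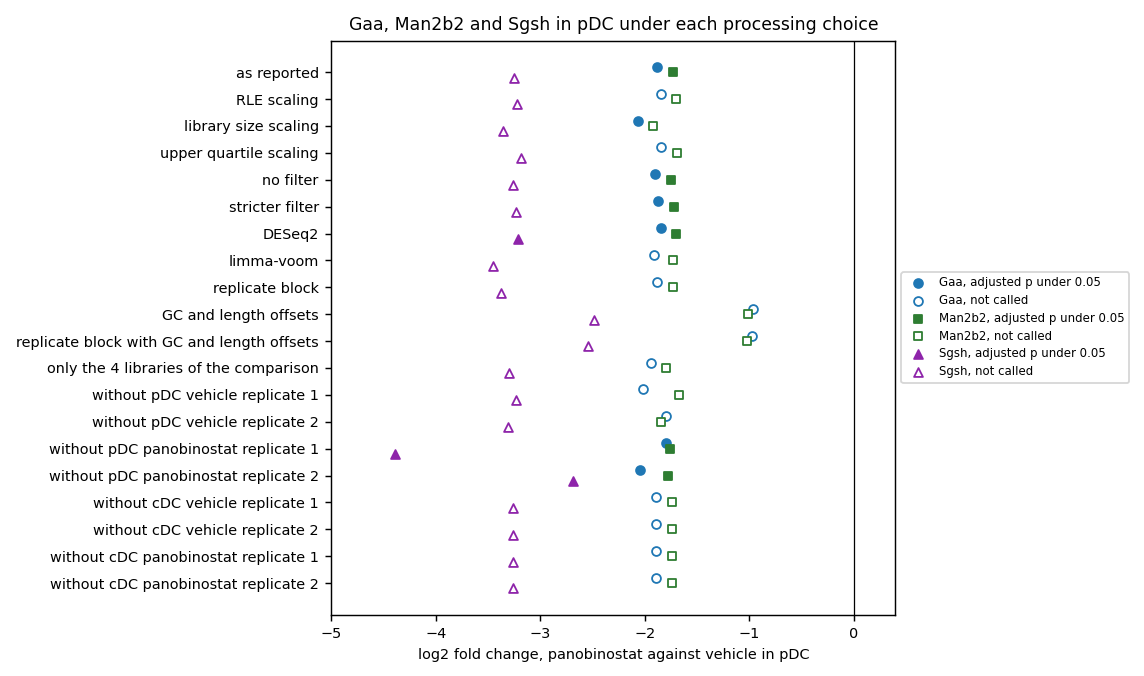
Log2 fold change of Gaa, Man2b2 and Sgsh with panobinostat in pDC (horizontal axis) under each processing choice (rows). Filled symbols passed at adjusted p under 0.05 and open symbols did not; the 3 genes lie below 0 in every row, and Gaa and Man2b2 move from about -1.9 and -1.7 to about -1 with the GC and length offsets.

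The sulfatases, which remove sulfate from glycosaminoglycans and sulfolipids, lay below 0 in pDC in all 5 members, as did all 3 genes of the TFEB family. None passed the test, and the median log2 fold change was -1.38. In all 5 both panobinostat libraries lay below both vehicle libraries, where 26.5% of all genes did so, and 3 of 5 had an unadjusted p under 0.05 in the lower direction, where 9.24% of all genes did. Sgsh, which acts on heparan sulfate, was at 33.6 and 32.4 CPM with vehicle and at 5.3 and 1.58 with panobinostat (log2 fold change -3.25 ± 0.63, adjusted p = 0.146). Arsa, which acts on sulfatides, was at 29.5 and 24.7 CPM against 8.73 and 11.4. Ids, the iduronate sulfatase, was at 12.5 and 12 CPM against 4.66 and 4.74. Vehicle and panobinostat libraries of these 3 genes were well apart, while Arsb (38.3 and 43.1 against 26.6 and 37.9) and Galns (38.4 and 38 against 30.7 and 30.1), sulfatases of dermatan and keratan sulfate, were closer. The direction held for all 5 under each scaling, filter, tool and left-out library, and for 4 of 5 with the GC and length offsets, where the median was -0.79. Sgsh shares 21.6% of its exon bases with Card14 on the opposite strand, Arsa 18.75% and Arsb 39.9% with antisense or noncoding genes. Whether the counting used strand is not given in the sources used here, so reads of these partners cannot be told apart. DESeq2 called Sgsh, Ids and Arsa lower, as did the quasi-likelihood test without panobinostat pDC replicate 2.

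Of the other glycosidases in pDC, Idua, which trims iduronate from glycosaminoglycans, was at 69.7 and 64.1 CPM with vehicle and 30 and 36.6 with panobinostat (log2 fold change -1.01 ± 0.28, adjusted p = 0.216). Man2b1, the main lysosomal alpha-mannosidase, was at 395 and 382 CPM against 196 and 275. Galc, the galactosylceramidase, was at 15.3 and 12.3 against 7.19 and 0, with 145 counts in panobinostat replicate 1 and none in replicate 2, where 3 counts correspond to 0.279 CPM. Neu1, a sialidase, was at 40.2 and 31.9 against 20.9 and 94.4, so that its panobinostat libraries lay on opposite sides of the vehicle libraries. Aga, which cleaves the link between asparagine and glycans, was the gene of the glycosidase group with both panobinostat libraries above both vehicle libraries (53.5 and 57.3 against 78.8 and 69.3). The remaining 7 glycosidases (Manba, Gla, Glb1, Hexa, Naglu, Gusb and Fuca1) had log2 fold changes between -0.27 and 0.10.

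The lipid, thioester and phosphate hydrolases in pDC (Asah1, Smpd1, Lipa, Acp2, Acp5, Ppt1 and Ppt2) had log2 fold changes from -0.40 to 0.36, and none passed. Among the peptidases and activator proteins the direction was mixed. Tpp1, a tripeptidyl peptidase, was at 173 CPM in both vehicle libraries and at 223 and 322 with panobinostat (log2 fold change 0.66 ± 0.22, adjusted p = 0.266). Scpep1, a serine carboxypeptidase, was at 530 and 536 against 628 and 787. Both had panobinostat libraries above the vehicle libraries. Psap (12400 and 10000 against 11400 and 10000) and Grn (3970 and 3550 against 3830 and 3490) overlapped between treatments, as did Gm2a (1230 and 1700 against 1220 and 2160).

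All 3 factors of the TFEB family had values below 0 in pDC without passing the test. Tfeb was at 26.8 and 27.4 CPM with vehicle and 15.1 and 18.7 with panobinostat (log2 fold change -0.68 ± 0.28, adjusted p = 0.34). Tfe3 was at 41.1 and 56.4 against 16.5 and 0, and Mitf at 7.62 and 7.68 against 5.01 and 0. Tfe3 had 333 counts in panobinostat replicate 1 and Mitf 101, and both had 0 in replicate 2, the library that stood apart, so the 2 panobinostat libraries differed widely and the standard errors were large (1.56 and 1.63). Of the membrane proteins, Lamp1, Lamp2 and the calcium channel gene Mcoln1 overlapped between treatments. Of the sorting receptors, M6pr was at 518 and 568 CPM against 602 and 828, and Sort1 at 38.7 and 33.4 against 36.4 and 27.5. Igf2r had 8 counts over both vehicle libraries and 0 with panobinostat, and both values are near the limit of detection. With 3 counts over both libraries as the floor and the 8 counts taken as exact, the level was at least 2.15-fold lower. Counting error of the 8 counts is left out, so a smaller difference remains possible. Floors cover only the counting error of a count of 0.

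Over the 40 members in pDC, 29 had a log2 fold change below 0 and 11 above, with a median of -0.17 beside -0.14 for all genes tested. Both panobinostat libraries lay below both vehicle libraries in 17 members (42.5%; 26.5% of all genes) and above them in 5 (12.5%; 15.7% of all genes). Across the 40 genes, the log2 fold change went with transcript length (Spearman's rho = -0.53; -0.27 over the 12767 genes tested with a length) and less with GC content (-0.22; -0.16). The 17 lower members had a median transcript of 3822 bases and the 5 higher members one of 2573 bases. These correlations run across genes of the same libraries, which are not replicates, and are given as a description. In cDC the same correlation with length was 0.04 over the members and -0.05 over all genes. The part of transcript length in the pDC values was not tested beyond the offsets above.

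**Figure D3:**
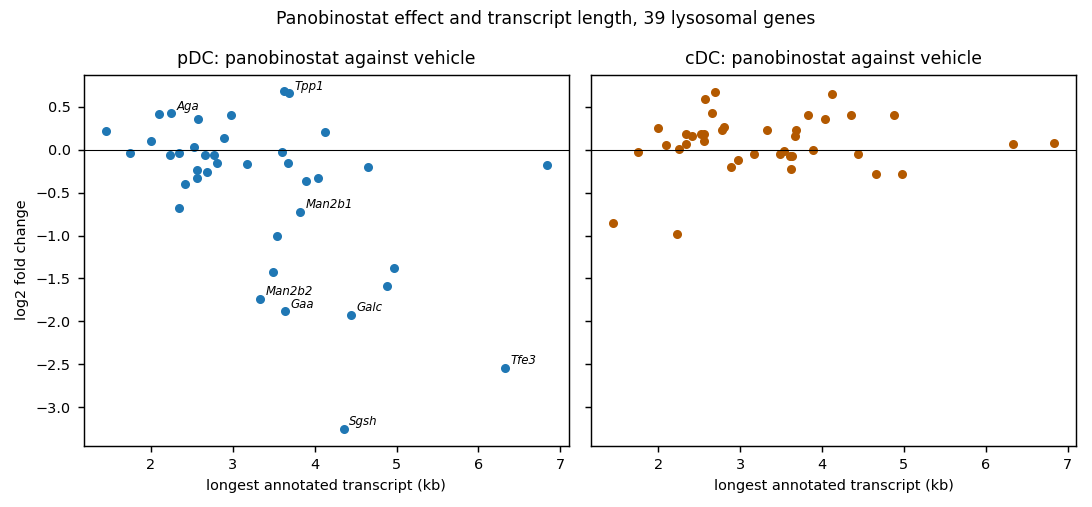
Log2 fold change of panobinostat against vehicle (vertical axis) against the length of the longest annotated transcript in kb for 39 lysosomal genes, in pDC (left) and cDC (right). Each point is 1 gene and Igf2r is left out because of its 0 counts; in pDC Sgsh, Tfe3, Galc, Gaa and Man2b2 lie lowest, at 3.3 kb or more, and in cDC the points scatter around 0 at all lengths.

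The same treatment was then compared in cDC, where no member was called in either direction (edgeR's quasi-likelihood test; 0% of all genes higher and 0% lower). DESeq2 and limma-voom also called 0, and 1 member had an unadjusted p under 0.05, higher, where 0.78% of all genes were higher. That gene was Gusb, the beta-glucuronidase, at 254 and 372 CPM with vehicle and 396 and 598 with panobinostat (log2 fold change 0.67 ± 0.27, adjusted p = 1). Acp5, the tartrate-resistant acid phosphatase, was at 217 and 137 CPM against 102 and 93.6 (-0.86 ± 0.35, adjusted p = 1). Man2b1 was at 755 and 767 against 987 and 1030 (0.40 ± 0.20, adjusted p = 1), and Ppt1 at 1700 and 2560 against 2710 and 3690 (0.59 ± 0.31, adjusted p = 1). The vehicle and panobinostat libraries of these 4 genes did not overlap, as was so for 22.2% of all genes higher and 18.8% lower. Gaa (81.2 and 75.4 against 77.2 and 72) and Man2b2 (66.3 and 62.4 against 73.2 and 77), the genes called in pDC, had log2 fold changes of -0.07 ± 0.18 and 0.22 ± 0.17 in cDC.

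By role in cDC, the 5 peptidases and activator proteins all had values above 0 (0.06 to 0.65), led by Gm2a (3570 and 4280 CPM against 5290 and 7010) and Psap (7750 and 9050 against 10500 and 12100). The 3 TFEB family genes were also above 0 (0.07 to 0.40), and of the 5 sulfatases 3 were above 0 and 2 below (-0.29 to 0.41). Lamp1 was at 41 and 129 CPM with vehicle, so its 2 vehicle libraries differed more than the treatments did (49 and 36.9 with panobinostat). Over all members 25 were above 0 and 15 below, with a median of 0.09 beside 0.00 for all genes, and with library size scaling the median was -0.05. In cDC the panobinostat libraries both lay above the vehicle libraries in 13 members (32.5%; 22.2% of all genes) and below in 5 (12.5%; 18.8% of all genes).

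**Figure D4:**
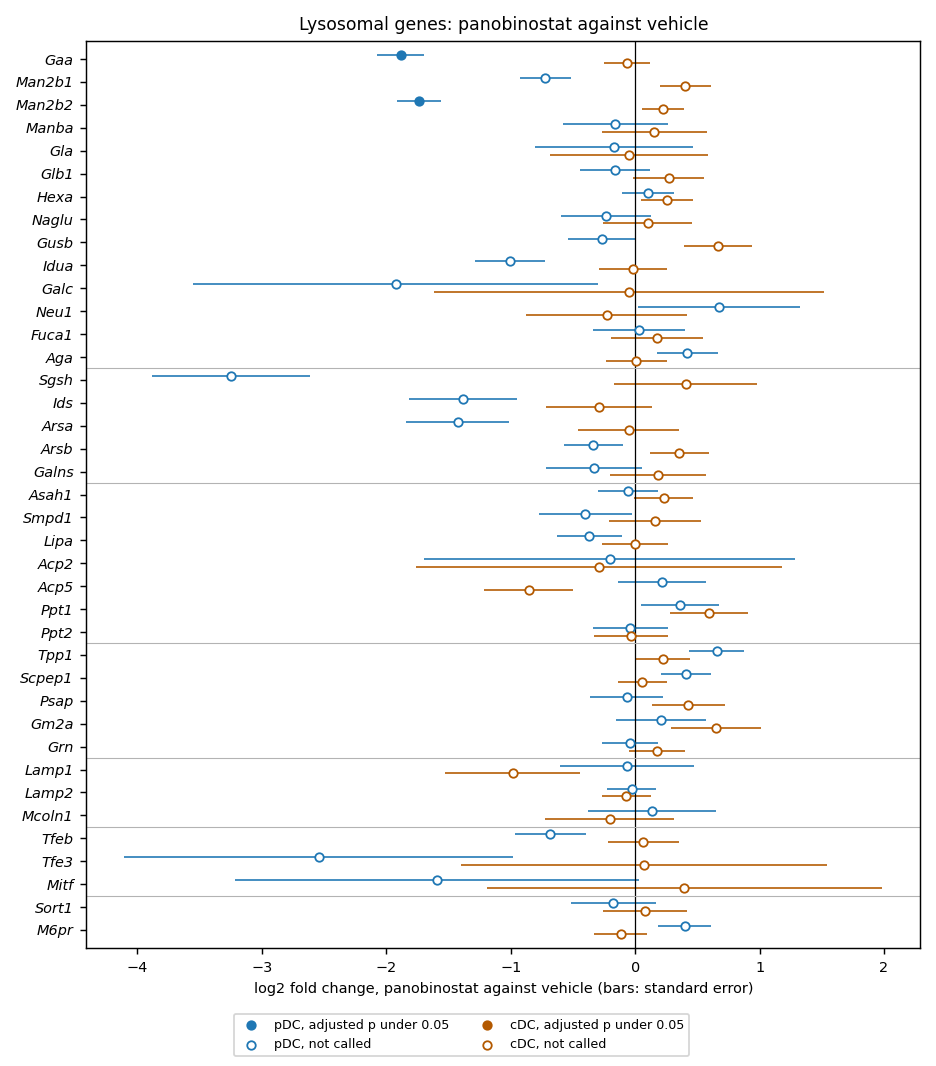
Log2 fold change of panobinostat against vehicle for 39 lysosomal genes in pDC (blue) and cDC (orange), with standard errors as bars and roles divided by lines. Filled points passed at adjusted p under 0.05; these are Gaa and Man2b2 in pDC, at -1.88 and -1.73, and Igf2r is left out because of its 0 counts.

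Whether the treatment acted differently on the 2 cell types was tested by the difference of the effects, pDC minus cDC. No member passed (edgeR's quasi-likelihood test), nor did limma-voom call any, while 0.00702% of all genes were called lower and 0% higher. DESeq2 called 3 members, all lower, and 6 members had an unadjusted p under 0.05, all lower, where 5.99% of all genes were lower. The smallest p belonged to Man2b2 (difference -1.96 ± 0.24 log2 units, adjusted p = 0.183), followed by Gaa (-1.81 ± 0.26, adjusted p = 0.249), Sgsh (-3.65 ± 0.84, adjusted p = 0.377) and Man2b1 (-1.13 ± 0.29, adjusted p = 0.406). Man2b1 lay lower with panobinostat in pDC and higher in cDC, without overlap in either. Of all genes, 26.5% lay lower without overlap in pDC and 22.2% higher in cDC. The median difference over the members was -0.35 beside -0.13 for all genes. Without panobinostat pDC replicate 1 or 2 the test called some members, and the median was -0.51 and -0.52. The share of all genes called in these fits is not given. Leaving out any one of the other 6 libraries gave 0 calls.

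The cell types were then compared with each other. In vehicle-treated mice 7 members were higher in pDC and 5 lower, 17.5% and 12.5% of the members beside 5.01% and 4.71% of all genes. The genes higher in pDC were led by Grn, which codes for the secreted and lysosomal protein progranulin, at 3970 and 3550 CPM in pDC and 547 and 415 in cDC (log2 fold change 2.97 ± 0.24, adjusted p = 0.00188). That is a 7.82-fold difference with no overlap, and the gene was called in all 19 alternative fits. Scpep1 was at 530 and 536 CPM against 154 and 159 (1.77 ± 0.20, adjusted p = 0.005). Lamp2, a glycoprotein of the lysosomal membrane, was at 380 and 422 against 138 and 139 (1.53 ± 0.20, adjusted p = 0.00811), and Tpp1 at 173 in both against 75.6 and 63.4 (1.31 ± 0.22, adjusted p = 0.0188). From the glycosidase group, Man2b2 (1.25 ± 0.17, adjusted p = 0.00976), Aga (1.23 ± 0.25, adjusted p = 0.0322) and Gaa (1.17 ± 0.19, adjusted p = 0.0156) completed this side. Man2b2 was 2.38-fold and Gaa 2.25-fold higher in pDC. Every one of these 7 genes had both pDC libraries above both cDC libraries.

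The genes lower in pDC were headed by Igf2r, the large mannose 6-phosphate receptor, at 0.202 and 0.216 CPM in pDC and 9.74 and 11.7 in cDC (log2 fold change -5.64 ± 0.75, adjusted p = 0.0136). Its 8 counts in vehicle pDC are near the limit of detection, while the smaller receptor M6pr was at 518 and 568 CPM in pDC and 663 and 734 in cDC. Ppt1 was at 288 and 294 CPM in pDC and 1700 and 2560 in cDC (-2.87 ± 0.34, adjusted p = 0.00527), and Acp5 at 42.6 and 24.6 against 217 and 137 (-2.39 ± 0.37, adjusted p = 0.0144). Gusb (108 and 115 against 254 and 372; -1.49 ± 0.28, adjusted p = 0.0254) and Man2b1 (395 and 382 against 755 and 767; -0.97 ± 0.21, adjusted p = 0.0367) completed this side. Macrophage markers, also higher in cDC libraries, summed to 252.8 and 304.2 CPM in vehicle cDC, where C1qa was at 24.3 and 39.4 CPM and Ppt1 alone at 1700 and 2560. Their part in the cDC levels was not tested.

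Several members missed the threshold by little in vehicle mice. Galns (1.67 ± 0.40, adjusted p = 0.0513) lay higher in pDC, and Lipa, the acid lipase (-1.12 ± 0.27, adjusted p = 0.0512), and Arsb (adjusted p = 0.0528) lay lower. Acp2 was not called (-3.65 ± 1.64, adjusted p = 0.241) although its libraries lay far apart, at 6.96 and 3.08 CPM in pDC and 70.8 and 55.6 in cDC. The spread comes from all 8 libraries, and Acp2 had 173 and 0 counts in the panobinostat pDC libraries. With panobinostat its log2 fold change was -3.57 ± 1.63, again without a call. With the replicate block Fuca1, the alpha-fucosidase (-1.12, adjusted p = 0.0445), and Gm2a (-1.44, adjusted p = 0.017) were also called lower. Of all members 20 were above 0 and 20 below, with a median of 0.04 beside 0.02 for all genes. The pDC and cDC libraries did not overlap in 19 members higher (47.5%; 35.1% of all genes) and 17 lower (42.5%; 35.5% of all genes) in pDC. The count of 12 called members fell without any 1 vehicle library or panobinostat cDC library and rose without either panobinostat pDC library. It was 28 in the 4 vehicle libraries alone and 25 with DESeq2. The share of all genes called in these fits is not given, so the counts show only how the result depends on processing.

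In panobinostat-treated mice the same contrast called 5 members higher in pDC and 11 lower, 12.5% and 27.5% beside 7.76% and 10.2% of all genes. Grn was at 3830 and 3490 CPM in pDC and 532 and 555 in cDC (log2 fold change 2.75 ± 0.24, adjusted p = 0.00178). Scpep1 (2.12 ± 0.21), Tpp1 (1.75 ± 0.23), Aga (1.64 ± 0.25) and Lamp2 (1.58 ± 0.20) were the others higher in pDC, with adjusted p of 0.00254, 0.00641, 0.0111 and 0.00602. Igf2r had 0 counts in both pDC libraries and 456 in cDC, at least 120-fold lower in pDC by the same floor (adjusted p = 0.00485). Ppt1 was at 302 and 447 CPM in pDC and 2710 and 3690 in cDC (-3.10 ± 0.34, adjusted p = 0.00373). Sgsh, at 5.3 and 1.58 against 32.9 and 26, was 8.47-fold lower (-3.08 ± 0.63, adjusted p = 0.0244). Gusb (-2.42 ± 0.29, adjusted p = 0.0049) and Man2b1 (-2.10 ± 0.21, adjusted p = 0.00292) were again lower in pDC.

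Further members called lower in panobinostat pDC than in panobinostat cDC were Gm2a (-1.86 ± 0.37, adjusted p = 0.023), Arsb (-1.69 ± 0.25, adjusted p = 0.00914), Ids (-1.68 ± 0.44, adjusted p = 0.0461), Lipa (-1.49 ± 0.27, adjusted p = 0.0176), Tfeb (-1.48 ± 0.29, adjusted p = 0.0217) and Man2b2 (-0.70 ± 0.17, adjusted p = 0.0392). Man2b2 was the member whose call changed sides, from higher in vehicle pDC (161 and 146 CPM against 66.3 and 62.4) to lower in panobinostat pDC (46.5 and 45.7 against 73.2 and 77). That reversal was not kept with GC and length offsets, where the log2 fold change with panobinostat was 0.05 (adjusted p = 0.87). The call was also lost without the filter, with limma-voom (adjusted p = 0.053), in the 4 libraries alone and without any one of the vehicle pDC, vehicle cDC or panobinostat cDC libraries (adjusted p = 0.0723 to 0.23). Gaa went the same way without a call on the panobinostat side (44.5 and 51.2 against 77.2 and 72; -0.64 ± 0.19, adjusted p = 0.0605). With the replicate block Fuca1 (adjusted p = 0.0269), Acp5 (0.0224) and Ppt2 (0.0459) were also called lower in pDC and Ids was not called (0.0666). Ppt2 shares 36.6% of its exon bases with Gm20460 on the same strand, so reads of the shared part cannot be told apart.

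Of the 12 members called with vehicle and the 16 called with panobinostat, 10 were called in both, 83.3% of the first list and 62.5% of the second. The share of all genes called in both was not computed, so the overlap is not read as a trait of the members. The contrasts use different libraries for their fold changes but share the estimate of the spread, which comes from all 8 libraries. Of these 10, 9 had the same direction: Grn, Scpep1, Tpp1, Aga and Lamp2 higher in pDC, and Igf2r, Ppt1, Gusb and Man2b1 lower. Over all 40 members 32 (80%) had the same direction under both treatments, beside 75.9% of all genes tested. The median log2 fold change was -0.58 with panobinostat beside -0.18 for all genes, and -0.21 with the GC and length offsets. The libraries did not overlap in 10 members higher (25%; 24.7% of all genes) and 22 lower (55%; 38% of all genes) in pDC. The count of 16 rose without panobinostat pDC replicate 1, fell without any 1 cDC library and was 0 in the 4 panobinostat libraries alone. The share of all genes called in these fits is not given.

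**Figure D5:**
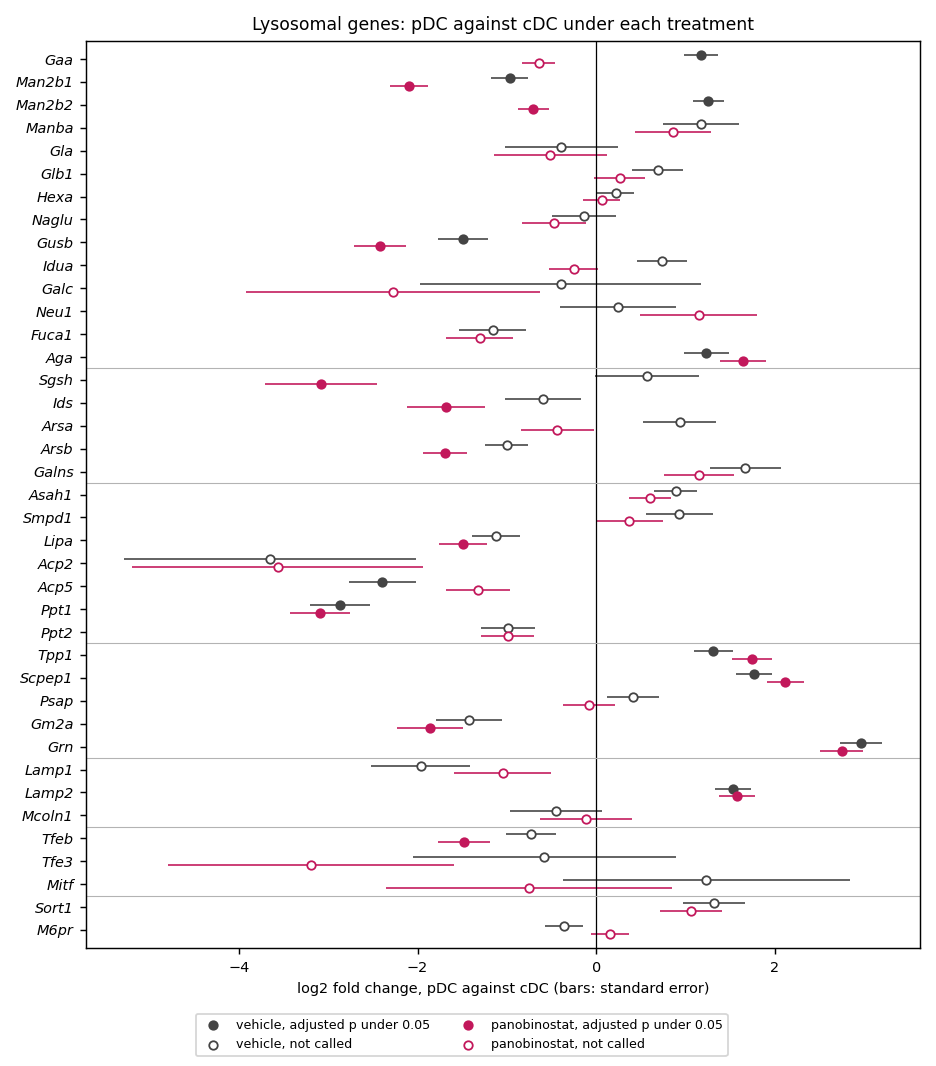
Log2 fold change of pDC against cDC for 39 lysosomal genes with vehicle (grey) and with panobinostat (pink), with standard errors as bars and roles divided by lines. Filled points passed at adjusted p under 0.05; Grn, Scpep1, Tpp1, Aga and Lamp2 are filled to the right and Ppt1, Gusb and Man2b1 to the left under both treatments, and Igf2r is left out because of its 0 counts.

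The genes around the module were read from 4 lists. The vacuolar ATPase acidifies the lysosome, and 17 of its 18 listed genes were tested. With panobinostat none of them was called in pDC or in cDC (3 higher and 1 lower, and 0 and 0, at an unadjusted p under 0.05, with 5.65% and 9.24% of all genes in pDC), with medians of 0.07 and 0.00. Between cell types 4 were higher and 1 lower in vehicle pDC than in vehicle cDC, where 5.01% of all genes were higher and 4.71% lower: Atp6v1d (1.38 ± 0.31), Tcirg1 (1.21 ± 0.25), Atp6ap2 (1.10 ± 0.23) and Atp6v0c (0.74 ± 0.17) against Atp6v0a2 (-1.82 ± 0.28). With RLE scaling 0 were called higher and 1 lower. With panobinostat 5 were higher (7.76% of all genes), among them Atp6v1d (1.99 ± 0.32), and Atp6v0a2 was again lower (-2.27 ± 0.28; 10.2% of all genes). Tcirg1 and Atp6v0a2 encode alternative forms of the same membrane subunit and lay on opposite sides: Tcirg1 was at a mean of 361 CPM in vehicle pDC and 156 in vehicle cDC, and Atp6v0a2 at 45.6 and 161.

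Of 26 other lysosomal enzymes and membrane proteins, none was called with panobinostat in pDC or cDC, with medians of 0.10 and 0.03. At an unadjusted p under 0.05 there were 1 higher and 1 lower in pDC, where 5.65% and 9.24% of all genes were, and 0 and 0 in cDC. Between cell types 3 were called higher and 2 lower in vehicle pDC, where 5.01% and 4.71% of all genes were. In vehicle mice Npc1, the cholesterol exporter (2.52 ± 0.31), and Scarb2, a lysosomal membrane protein (1.83 ± 0.29), were among the genes higher in pDC, and Plbd1 (-3.69 ± 0.69) and Cd63 (-6.34 ± 1.42) were lower. With panobinostat 5 were called higher and 1 lower in pDC, where 7.76% and 10.2% of all genes were. Npc1 and Scarb2 were among those higher, as were Npc2 and Pla2g15, and Plbd1 was lower.

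Of 18 genes of mannose 6-phosphate tagging and coat adaptors, none was called with panobinostat. In pDC 6 had an unadjusted p under 0.05, all lower (9.24% of all genes were lower), with a median over the list of -0.42 beside -0.14 for all genes. For 10 genes both panobinostat libraries lay below the vehicle libraries (26.5% of all genes). The 4 smallest p belonged to the adaptor genes Ap1b1 (-1.40 ± 0.19, adjusted p = 0.102), Gga1 (-1.89 ± 0.30, adjusted p = 0.126), Gga3 (-1.13 ± 0.37, adjusted p = 0.255) and Ap3b1 (-0.98 ± 0.32, adjusted p = 0.256). In cDC the median was 0.03 with 0 members at an unadjusted p under 0.05. Between cell types none was called with vehicle. At an unadjusted p under 0.05, 1 was higher and 1 lower, where 11.2% and 13.3% of all genes were. With panobinostat Ap1s1 was called higher and Ap1b1 and Gga1 lower in pDC, where 7.76% of all genes were called higher and 10.2% lower.

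Of 18 genes of the nutrient machinery that holds TFEB in the cytoplasm (Rag GTPases, Ragulator, mTORC1 and folliculin), none was called with panobinostat. In pDC 2 higher and 3 lower had an unadjusted p under 0.05 (5.65% and 9.24% of all genes). The mTORC1 genes Rptor (-2.28 ± 0.35, adjusted p = 0.118) and Mtor (-1.66 ± 0.36, adjusted p = 0.159) and the inhibitor gene Tsc2 (-1.61 ± 0.31, adjusted p = 0.143) lay lower, and the Ragulator gene Lamtor2 (1.26 ± 0.44, adjusted p = 0.279) higher. In cDC no gene of the list had an unadjusted p under 0.05. Lamtor4 was higher in pDC under both treatments (1.49 ± 0.28 with vehicle, 1.33 ± 0.28 with panobinostat), and Mtor and Tsc2 were lower in pDC with panobinostat (-1.89 ± 0.36 and -1.40 ± 0.31). Of all genes, 5.01% were called higher with vehicle, and 7.76% higher and 10.2% lower with panobinostat. For the difference of the effects 0 genes of the 4 lists were called. At an unadjusted p under 0.05, 3 of the tagging list and 3 of the nutrient list were lower, where 5.99% of all genes were. The panobinostat counts in pDC depended on single libraries: without replicate 1 of panobinostat pDC, 6 higher and 1 lower were called in the vacuolar ATPase list, 8 and 5 among the other lysosomal genes, 2 and 10 in the tagging list and 7 and 7 in the nutrient list. Without replicate 2 these were 0 and 1, 0 and 0, 0 and 3, and 0 and 3. With DESeq2 2 tagging genes and 3 nutrient genes were called, all lower. The share of all genes called in these fits is not given. The calls between cell types also depended on single libraries, again without the share of all genes called in each fit. With vehicle, leaving out 1 library gave 0 to 6 higher vacuolar ATPase genes, 0 to 10 other lysosomal genes, 0 to 2 tagging genes and 0 to 3 nutrient genes, with 0 or 1 higher in each list without any 1 vehicle library and the highest without either panobinostat pDC library. With panobinostat these were 0 to 12, 0 to 11, 0 to 3 and 0 to 6, with 0 in the first 2 lists without panobinostat cDC replicate 1 or 2.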

How the data were processed

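mRNA libraries made from total RNA of splenic pDC and cDC were sequenced in 4 groups of 2 pooled libraries. Per the submitters' processing notes, reads were handled with bcl2fastq (2.17.1.14), FastQC (0.11.6), cutadapt (2.1), HISAT2 (2.1.0) and featureCounts (Subread 2.0.0) against mm10. The deposited table holds whole-number counts per Entrez gene ID, made by the authors; the sources used here do not give its strand setting or annotation. Column names with D5W were read as vehicle and those with LBH as panobinostat.

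Of 27179 gene IDs 25275 matched a symbol. Genes passing filterByExpr (minimum count 10, total 15; 14238 genes) were scaled by TMM and fitted in edgeR (4.0.16, R 4.3.3) over all 8 libraries with 1 coefficient per group (4 residual and 2.32 prior degrees of freedom), and p-values were adjusted by Benjamini-Hochberg over all genes at 0.05. Standard errors come from the quasi-likelihood statistic. Alternatives used DESeq2 (1.42.0), limma-voom (3.58.1), other scalings and filters, offsets for GC content and length (fitted where the mean log2 CPM reached 3), a replicate block, 4 libraries only, and each library left out. The labels used here do not say what the replicate numbers share. Same-number deviations correlated at 0.15 to 0.49 in all 6 pairs of groups. The reported fit has no block, and with the block no member was called for panobinostat in pDC.

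The series text calls the 2 pools of each group biological replicates, so p-values measure the spread between pools of mice, not between single mice. On simulated data, panobinostat effects in pDC (13874 genes) were called for 0% of 2-fold, 17.9% of 4-fold and 47% of 16-fold changes. Few genes were changed there, none of very low level, and each gene had the same spread in every library. No simulated library stood apart as panobinostat pDC replicate 2 did, so these shares need not hold for the real data. The members and the 14 other lists (4 pathway, 10 marker) were chosen with earlier results of these data known. Every member is accounted for by role, called members are given with their test, and where fewer than 4 were called the smallest p values fill up to 4; from the pathway lists up to 4 smallest p values are named. Further genes were named after their values were seen. One gene of the pathway lists is not reported here.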

Additional observations from a re-analysis of the deposited data

How the results depend on the processing

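The count of members called in pDC (2) was 0 with RLE scaling, upper quartile scaling, limma-voom, the replicate block, the GC and length offsets, both together, and the 4 pDC libraries alone; 1 with library size scaling; 6 with DESeq2; and 0 to 17 when 1 library was left out. In cDC it was 0 in all 19 alternatives. For the difference it was 3 with DESeq2 and 0 to 12 without 1 library. For pDC against cDC it was 25 (DESeq2), 28 (the 4 vehicle libraries alone) and 2 to 30 without 1 library with vehicle, and 0 (4 libraries alone) and 6 to 27 without 1 library with panobinostat. Left-out fits leave 1 library in a group, which is assumed to vary like the others. The counts of the alternative fits are given without the share of all genes called in the same fit. They describe the dependence on processing and not the members.

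The median log2 fold change of the members was -0.0457 in cDC with library size scaling, and -0.21 and -0.22 for pDC against cDC with panobinostat under the offsets without and with the replicate block. Leaving out 1 library gave medians of 0.0329 to 0.2026 in cDC, -0.52 to -0.22 for the difference and -0.11 to 0.16 for pDC against cDC with vehicle. Library size scaling moved the median of all genes from -0.14 to -0.28 in pDC and from 0.00 to -0.13 in cDC, and RLE scaling moved it from 0.02 to -0.11 for vehicle pDC against cDC. Man2b2 reversed to 0.05 for pDC against cDC with panobinostat under the offsets, with and without the block (0.0544 and 0.0517); the cause was not tested. Beside the calls named in the report, the replicate block changed no member's call. In simulations with few changed genes, 0% of 2-fold changes were called, for panobinostat in pDC and for pDC against cDC with vehicle. Between the cell types many more genes were called, and members below 2-fold passed there, such as Man2b1 with vehicle (1.96-fold). What can be said is limited for Igf2r by its few counts in pDC. For Galc, Acp2, Tfe3 and Mitf it is limited by a count of 0 in panobinostat pDC replicate 2 alone.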
